A study of Mus musculus with 24 samples.

Results

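MHC class II molecules are paired alpha and beta chains that hold peptides taken up from outside the cell and show them to CD4+ T cells. The invariant chain, Cd74, escorts new class II pairs to the endosome, H2-DM exchanges the last piece of it for a peptide, and the transactivator Ciita switches the genes on. In the healthy brain these genes are known mainly from microglia, from macrophages of the vessels and meninges and from dendritic cells, and interferon gamma raises them.

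The class II genes were chosen by name, as every gene of the deposited table whose symbol is that of an H2-A, H2-E, H2-DM or H2-O chain, plus Cd74 and Ciita. Of 12 genes that RefSeq lists under this rule, 5 were measured among the 13998 genes of the table. These are H2-Aa, the alpha chain of the H2-A molecule, H2-Eb1 and H2-Eb2, beta chains of the H2-E family, H2-DMa, the alpha chain of H2-DM, and Cd74. The other 7 genes (H2-Ab1, H2-Ea, H2-DMb1, H2-DMb2, H2-Oa, H2-Ob and Ciita) were not analysed here, so no alpha and beta chain of the same molecule could be compared.

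Hypothalamic RNA came from 24 young adult male F2 mice, 12 with 2 CAST/EiJ alleles (cast/cast) and 12 with 2 C57BL/6J alleles (b6/b6) across a congenic segment of chromosome 17, and b6/b6 elsewhere in the genome. The F2 mice descend from a B6.CAST-17.1 congenic male and C57BL/6J females, and all had the choice of a carbohydrate/protein (C/P) and a fat/protein diet for 10 d and again for about 48 h before harvest. The mice were picked from the ends of the intake distribution, so that C/P intake over 10 d was 77.8 to 106.6 kcal in cast/cast and 27.4 to 41.0 kcal in b6/b6, and an effect of genotype and one of intake cannot be told apart. The study asked which hypothalamic transcripts differed between these genotypes. Of the 5 genes, H2-Aa, H2-Eb1, H2-Eb2 and H2-DMa lie inside the CAST segment, which holds 429 of the genes measured, and Cd74 lies on chromosome 18, outside it.

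Each transcript was read as a 27-base tag next to its last CATG near the 3′ end, and the values are tag hits divided by a size factor per library, here called normalized counts. The 24 libraries held 7754202 to 13082873 tag hits each. A gene was called where limma gave an unadjusted P of at most 0.01 and the group means differed at least 1.5 times in the same direction. By this rule 208 of 13998 genes (1.49%) were called, 66 of them higher in cast/cast (0.471%) and 142 lower (1.01%). Inside the segment 105 of 429 genes (24.5%) were called, 25 of them higher (5.83%) and 80 lower (18.6%). Outside it the share was 0.713%. After all libraries were brought to an equal total, 43 genes were higher and 187 lower. Among genes outside the segment, the mice fell along 2 principal components with 36.9% and 19.8% of the variance. The scores of b6/b6 mice 6 and 12 stood apart on the second, and cast/cast mice 4 and 6 lay at the end of the first. The labels carry study numbers whose medians were 120.5 in cast/cast and 269.5 in b6/b6, so the genotypes were not spread evenly over the study. The labelled tissue was checked with 15 hypothalamic neuron markers, of which 14 were measured and none was called by limma. Their summed normalized counts were 10696 to 35374 in cast/cast mice and 16404 to 37005 in b6/b6 mice. Cast/cast mice 4, 5 and 6, with 13438, 10967 and 10696, lay below every b6/b6 mouse.

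The tags predicted for the segment's class II genes are given because each measurement should rest on such a tag of 27 bases. They were taken from GENCODE M21 transcripts paired with RefSeq, on the B6-based GRCm38. They were not compared with the tags sequenced. The capitals mark the CATG at which the tag begins, on the strand of the gene.
H2-Aa: CATGgtgttctttctcttcttcaagtg
H2-Eb1: CATGggagttattgtataagaaataaa
H2-Eb2: CATGagactctgccatagaacccaggc
H2-DMa: CATGggcattgtcttcttcctctgctc
The H2-Aa tag lies at chr17:34282927-34282953 on the minus strand, in exon 5 of 5 and outside the coding sequence. The H2-Eb1 tag lies at chr17:34316633-34316659 in exon 6 of 6, and the H2-Eb2 tag at chr17:34341156-34341182 in exon 5 of 5, both on the plus strand and past the coding sequence. The H2-DMa tag, at chr17:34138489-34138515 on the plus strand, is the only coding tag of these 4, with all 27 bases in the coding part of exon 5 of 6. Each 27-mer was found in the transcripts of 1 gene, and the most similar tag of any other gene differed from it at 5 or more bases. Whether CAST/EiJ mice carry other bases at these sites was not examined here.

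H2-Aa was the class II gene that differed most. Its tag count fell in cast/cast, with a log2 fold change of -5.90 (SE 0.39, 95% interval -6.67 to -5.14). No cast/cast mouse reached the level of any b6/b6 mouse. The 12 b6/b6 mice had normalized counts of 29.9 at the lowest, 107.7 at the median and 375 at the highest. Of the 12 cast/cast mice, 6 had no tag, 5 had 1 or 2 tags, and mouse 1 had 7 tags, a normalized count of 7.53. Across all mice, 1576 tags were counted in b6/b6 and 14 in cast/cast, a level 109.9-fold higher in b6/b6. The exact 95% interval, 65.3 to 201, pools the mice and treats tags as independent. It leaves out the spread between mice, and the tags carry no molecular identifiers, so it is too narrow. In cast/cast, 11 of 12 mice were therefore at or below 3 tags, where presence and absence of the transcript cannot be told apart. By limma the difference had P = 1.05e-14 and a Benjamini-Hochberg adjusted P of 1.05e-11. Groups without overlap were found for 10.3% of the segment's genes and 0.336% of all genes. In these bulk samples, fewer cells that express a gene and less RNA per cell cannot be told apart. CAST/EiJ bases at the H2-Aa tag were not examined, so an effect of sequence on the tag count was not tested either.

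**Figure D1:**
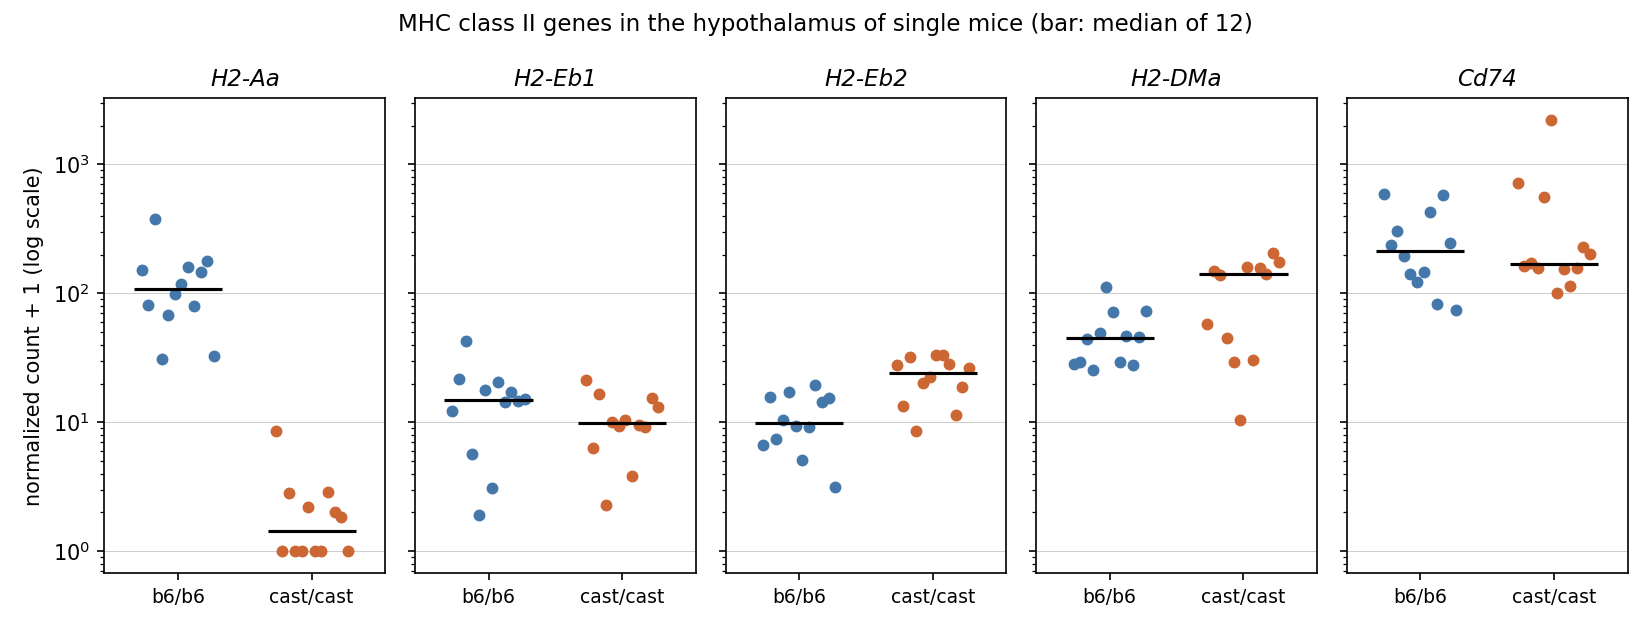
Normalized count + 1 (log scale) of the 5 class II genes in each of the 12 b6/b6 and 12 cast/cast mice, with a point per mouse in the order of the mouse numbers and a bar at the median. H2-Aa separates the genotypes without overlap, H2-Eb2 and H2-DMa lie higher in most cast/cast mice, and H2-Eb1 and Cd74 overlap.

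H2-Eb2 rose in cast/cast by 1.10 on the log2 scale (SE 0.30, 95% interval 0.52 to 1.69). It is a beta-like gene of the H2-E group and the least abundant of the 5 in b6/b6. The b6/b6 mice ran from 2.18 to 18.3 with a median of 8.93, that is 2 to 19 tags. The cast/cast mice ran from 7.62 to 32.4 with a median of 23.3, that is 6 to 34 tags. The ranges overlapped, with 8 cast/cast mice above every b6/b6 mouse and 4 b6/b6 mice below every cast/cast mouse. By limma the unadjusted P was 0.000938 and the adjusted P over all genes 0.134, so the call rests on the unadjusted threshold. H2-Eb2 was also called by edgeR (P = 0.000942) and DESeq2 (P = 0.000144).

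H2-Eb1, the classical beta chain of H2-E, was not called. Its partner H2-Ea carries a deletion in C57BL/6 mice, which is known to keep the H2-E molecule off the surface of their cells. Normalized counts of H2-Eb1 ran from 0.904 to 41.5 in b6/b6 with a median of 13.9. In cast/cast they ran from 1.27 to 20.5 with a median of 8.80. The log2 fold change was -0.37 (SE 0.43, 95% interval -1.22 to 0.47, P = 0.392 by limma). A difference of any size within this interval would be compatible with these values. Counts were 1 to 45 tags per mouse, and how far depth limited detection was not tested. The 2 b6/b6 mice above every cast/cast mouse were mouse 3 with 41.5 and mouse 2 with 20.9. The neighbouring beta genes therefore had fold changes of unlike sign, with H2-Eb2 called higher and H2-Eb1 lower by a value within its error.

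H2-DMa, the alpha chain of the peptide exchange factor, had a log2 fold change of 0.87 (SE 0.41, 95% interval 0.07 to 1.67) and was not called by limma (P = 0.0425, adjusted P = 0.607). The 12 b6/b6 mice ran from 24.4 to 110 with a median of 44.0, the highest being mouse 6. The cast/cast mice fell into separate levels, 7 of them (mice 2, 3, 7 and 9 to 12) between 137 and 203, and 5 (mice 1, 4, 5, 6 and 8) between 9.50 and 57.0. All 7 higher mice lay above every b6/b6 mouse, while the 5 lower ones lay within or below the b6/b6 range. Both count models called the gene higher, at a background of 2.79% and 2.82% of all genes called. For edgeR P was 0.00424 (adjusted P = 0.244) and for DESeq2 0.00142 (adjusted P = 0.108). With libraries rescaled to the same total limma gave P = 0.0905, and with the study number as a covariate P = 0.0858. Without cast/cast mouse 6, the lowest at 9.50, the log2 fold change was 1.14 and limma called the gene (P = 0.00276). That setting was chosen after the data were seen, and leaving out the lowest cast/cast mouse can only raise the difference.

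The level of H2-DMa among mice followed a pattern that many genes shared. After the genotype means were subtracted, its Pearson correlation with the first principal component over 24 mice was -0.89, as a description. Of 11992 genes with a mean of at least 20, 454 correlated with it at 0.8 or above and 397 at -0.8 or below, against 16 and 3 for Cd74 and none for H2-Eb1 and H2-Eb2. The most alike were Lamp1, a membrane protein of lysosomes (0.93), Dync1li1, a light intermediate chain of dynein (0.92), Rab3a, a GTPase of synaptic vesicles (0.92), Ctnna2, an alpha catenin of neurons (0.92), and Taz, the mitochondrial cardiolipin remodelling enzyme tafazzin (0.92). With the first 2 principal components as covariates, an alternative chosen after the data were seen, the log2 fold change of H2-DMa was 1.07 (SE 0.21) with P = 2.73e-05 and an adjusted P of 0.00503 by limma. What sets the shared pattern was not tested.

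Cd74 showed no called difference between the genotypes. The invariant chain was the most abundant of the 5 genes by tags, which are counted once per transcript and so are not scaled by length. The b6/b6 mice had normalized counts from 74.0 to 590, with a median of 213.6. The cast/cast mice had 99.6 to 2224, with a median of 167.5, and after mouse 6 at 2224 the next were mouse 1 at 715 and mouse 5 at 556. The means, 261 ± 180 (SD, n = 12) in b6/b6 and 411 ± 601 (SD, n = 12) in cast/cast, and the medians thus stood in opposite order. The log2 fold change was 0.23 (SE 0.44, 95% interval -0.63 to 1.08, P = 0.607 by limma) and was -0.062 without cast/cast mouse 6.

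**Figure D2:**
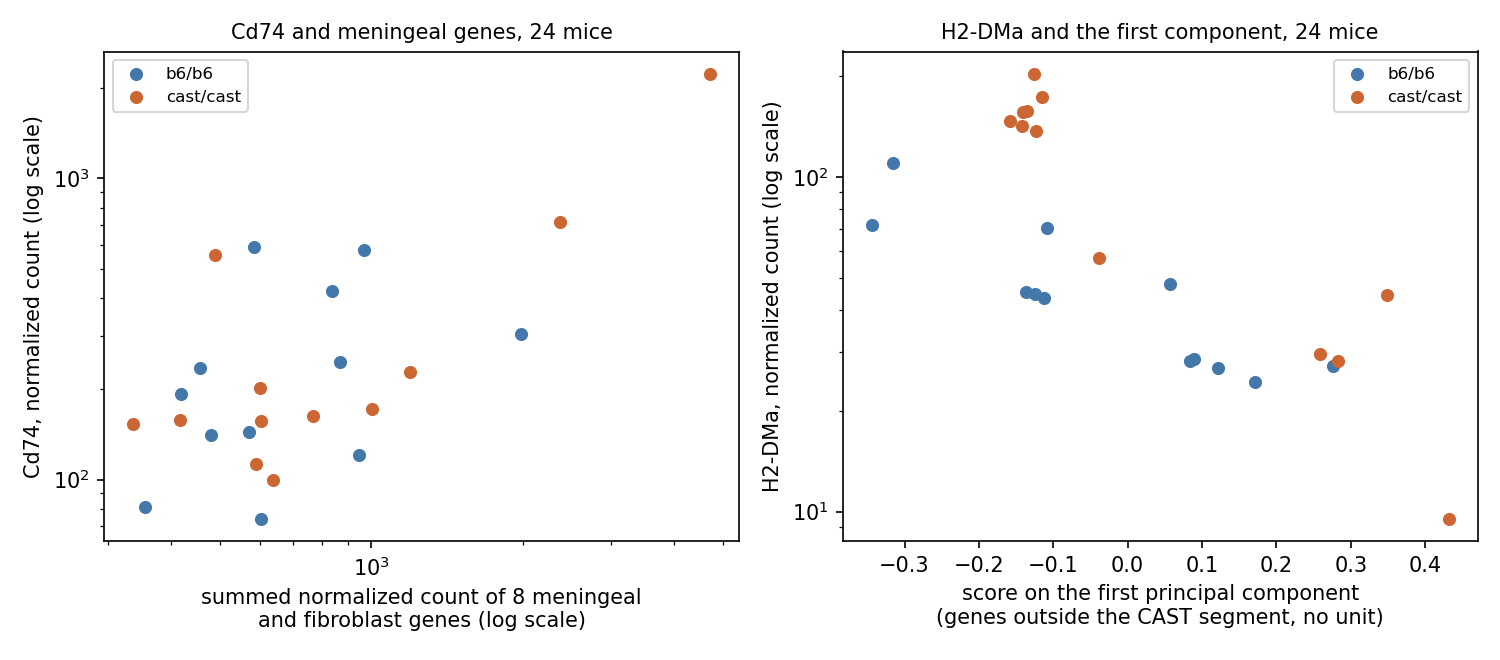
Left, normalized count of Cd74 against the summed normalized count of 8 meningeal and fibroblast genes, both on log scales, with a point per mouse. Right, normalized count of H2-DMa (log scale) against the score on the first principal component of genes outside the CAST segment, where cast/cast mouse 6 lies at the lower right with 9.50 and the 7 higher cast/cast mice lie together at the upper left.

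The mice with the most Cd74 included those with the most tags from meningeal genes. The list of 8 genes of meninges and fibroblasts, all measured, among them Igf2, a growth factor, Col1a1, a collagen chain, and Dcn, the matrix proteoglycan decorin, had sums of 356 to 1982 in b6/b6, against 336 to 4713 in cast/cast. The highest sum was that of cast/cast mouse 6 and the next, 2371, that of cast/cast mouse 1. Within cast/cast the correlation of Cd74 with this list was r = 0.83 (permutation P = 0.00252, Spearman rho = 0.70, P = 0.0138), with adjusted P of 0.0763 and 0.155 over 32 relations between members and marker lists. It was r = 0.25 (rho = 0.48) without the 2 mice farthest from the median of the list, so the r of the list as a whole leaned on those mice. Within b6/b6 it was 0.28 (permutation P = 0.384). The genes most like Cd74 over 24 mice, with the genotype means subtracted, were Efemp1, an extracellular matrix protein (r = 0.94), Col1a1 (0.89), Crispld2, a secreted protein (0.89), Foxc2, a transcription factor of mesenchyme and vessels (0.88), and Thbd, the thrombin receptor thrombomodulin (0.87). Cast/cast mouse 6 also had the highest sum of the 5 measured choroid plexus genes, 574 against 377 in the next cast/cast mouse. It was likewise the highest cast/cast mouse in the sums of B cell genes (620 against 245), border macrophage genes (166 against 115), endothelial genes (3258 against 2255) and microglia genes (9110 against 8634). Its sum of hypothalamic neuron genes, 10696, was the lowest of all 24 mice. The part of any of these tissues or cells in the Cd74 level was not tested.

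Within each genotype the same mouse led in H2-Aa and in H2-Eb1. Over all b6/b6 mice these genes had r = 0.45 (permutation P = 0.137, adjusted P = 0.446). That r was 0.15 without the 2 mice farthest from the median of H2-Aa. The mouse with the most H2-Aa, b6/b6 mouse 3 at 375, also had the most H2-Eb1, 41.5, and the highest meningeal sum of its genotype, 1982. In cast/cast, mouse 1 had both the most H2-Aa, with its 7 tags, and the most H2-Eb1, at 20.5. Genes most like H2-Aa were Dnase1l1 and Antxr2 (r = 0.73 each), Pcolce, an enhancer of collagen processing (0.73), Ppic, a cyclophilin (0.72), and Mgp, an inhibitor of calcification (0.71). These values include cast/cast mice with almost no H2-Aa tags, and within b6/b6 alone r was 0.88 for Antxr2 and 0.87 for Pcolce. Mgp was also among the 5 most like H2-Eb1 (0.69), after Eya2 (0.70), Cdh1, the epithelial adhesion molecule E-cadherin (0.70), Evc2 (0.70) and Enox1 (0.69). For H2-Eb2 they were Cox7a1, a subunit of cytochrome oxidase (0.69), Ccdc121 (0.68), Fbxo36 (0.67), Usp25 (0.67) and Abhd11 (0.66). All are descriptions over 24 mice that share libraries and depth.

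Between members, 13 relations were computed within a genotype, and no adjusted P reached 0.05. H2-DMa and H2-Aa in cast/cast were left out, the one because its mice fell into separate levels and the other because 11 of 12 mice had 3 tags or fewer. The strongest were those of Cd74 in b6/b6. With H2-Aa r was 0.60 (permutation P = 0.0361, rho = 0.71, P = 0.0132, adjusted P 0.235 and 0.0856), and 0.47 without the 2 mice farthest from the median of Cd74. With H2-DMa r was -0.70 (permutation P = 0.0119, rho = -0.74, P = 0.0077, adjusted P 0.154 and 0.0856), and -0.61 without those 2 mice. Invariant chain and H2-DMa thus stood in opposite order across these b6/b6 mice, but not past the correction. H2-Eb1 and H2-Eb2 had r = -0.05 in b6/b6 and 0.51 in cast/cast (permutation P = 0.890 and 0.0857).

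The members were set against the lists of microglia, perivascular and border macrophages, meninges and fibroblasts, and choroid plexus. Over all mice of a genotype, none of the 32 relations passed at an adjusted P of 0.05. The highest r of H2-Aa, in b6/b6, was with 6 perivascular and border macrophage genes (r = 0.74, permutation P = 0.00477, adjusted P = 0.0763), and it was 0.58 without the 2 mice farthest from the median. Cd74 in cast/cast had r = 0.73 with that list (permutation P = 0.00763, adjusted P = 0.0814), and 0.47 without the 2 farthest mice. For H2-Eb1 in cast/cast the same list gave r = 0.66 (permutation P = 0.0214, adjusted P = 0.098) and the meningeal list 0.60 (permutation P = 0.0412, adjusted P = 0.147). These became 0.84 and 0.88 without the 2 farthest mice, with an adjusted P of 0.036 each by Pearson and 0.478 by Spearman. Microglia genes gave their highest r with H2-DMa in b6/b6 (r = 0.66, permutation P = 0.0186, adjusted P = 0.098), and 0.54 without the 2 farthest mice.

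The intake of the mice was compared with the members within each genotype in 16 relations, again without H2-Aa and H2-DMa in cast/cast. The 1 relation past the correction was that of H2-Eb2 with C/P intake in b6/b6, with r = 0.80 (permutation P = 0.00182, adjusted P = 0.0291, rho = 0.75, P = 0.007, adjusted P = 0.112). Without the 2 mice farthest from the median intake r was 0.56 (permutation P = 0.0921, adjusted P = 0.368, rho = 0.59), so whether the relation passes depends on those mice. That setting has fewer mice and a narrower range of intake. The b6/b6 mouse 12, with the lowest intake of 27.4 kcal, had the fewest H2-Eb2 tags, 2. Its library also held the fewest tag hits, 7754202. In cast/cast the same r was 0.01 (permutation P = 0.975). The other 15 relations had adjusted P above 0.05 over all 12 mice of a genotype. Without the 2 mice farthest from the median intake, H2-Aa with total intake in b6/b6 went from r = 0.47 to 0.80 (permutation P = 0.0046, adjusted P = 0.0736) and from rho = 0.49 to 0.89 (P = 0.00129, adjusted P = 0.0206), so it passed by Spearman only in that setting. Cd74 with total intake in b6/b6 went from r = 0.52 to 0.73 (permutation P = 0.0208, adjusted P = 0.162), not past the correction. H2-Eb1 with C/P intake in b6/b6 went from r = 0.05 to 0.66 (permutation P = 0.0304, adjusted P = 0.162), likewise not past it.

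The genes that drive and serve class II expression were examined from chosen lists. Of 15 genes of class II transcription, 14 were measured and none was called by limma, edgeR or DESeq2, 2 of them having an unadjusted P under 0.05 by limma. These were Nfyb, a subunit of the Y-box factor NF-Y, with a log2 fold change of -0.37 (P = 0.0319), and Ifngr2, a chain of the interferon gamma receptor, with -0.40 (P = 0.036), both named after their values were seen. Rfx5, a DNA-binding subunit of the RFX complex on class II promoters, had means of 686 ± 237 in b6/b6 and 763 ± 263 in cast/cast (SD, n = 12 each, P = 0.544 by limma). Nfyc, another NF-Y subunit, had a log2 fold change of 0.28 (P = 0.254), and Jak1, a kinase of interferon receptors, 0.07 (P = 0.652). The levels of these genes overlapped between the genotypes, as for most genes: 0.336% of all genes had groups without overlap. All 14 lie outside the segment, where 0.713% of genes were called by limma. The lack of a call among so few genes therefore says little about them. The same limit holds for the other lists of genes outside the segment given below.

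Of 13 genes of class II processing and trafficking, 11 were measured and none was called by any of the 3 tools, with no unadjusted P under 0.05 by limma. The most abundant were Hspa8, a chaperone (log2 fold change 0.21), Ctsd, a lysosomal protease (-0.23), and Canx, the chaperone calnexin (-0.03). Of 17 interferon gamma response genes, 12 were measured and none was called by any of the 3 tools, with none under 0.05. B2m, the light chain of class I molecules, had a log2 fold change of -0.38 (P = 0.498 by limma) while its means, 1874 in b6/b6 and 2022 in cast/cast, stood in the opposite order, and Psmb10, a subunit of the immunoproteasome, 0.01 (P = 0.982). Over all genes 1138 of 13998 (8.13%) had an unadjusted P under 0.05. The median log2 fold change was 0.23 over the 5 members, -0.00076 over the transcription list, -0.17 over processing and trafficking and 0.00044 over the interferon list, against -0.02 over all genes.

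**Figure D3:**
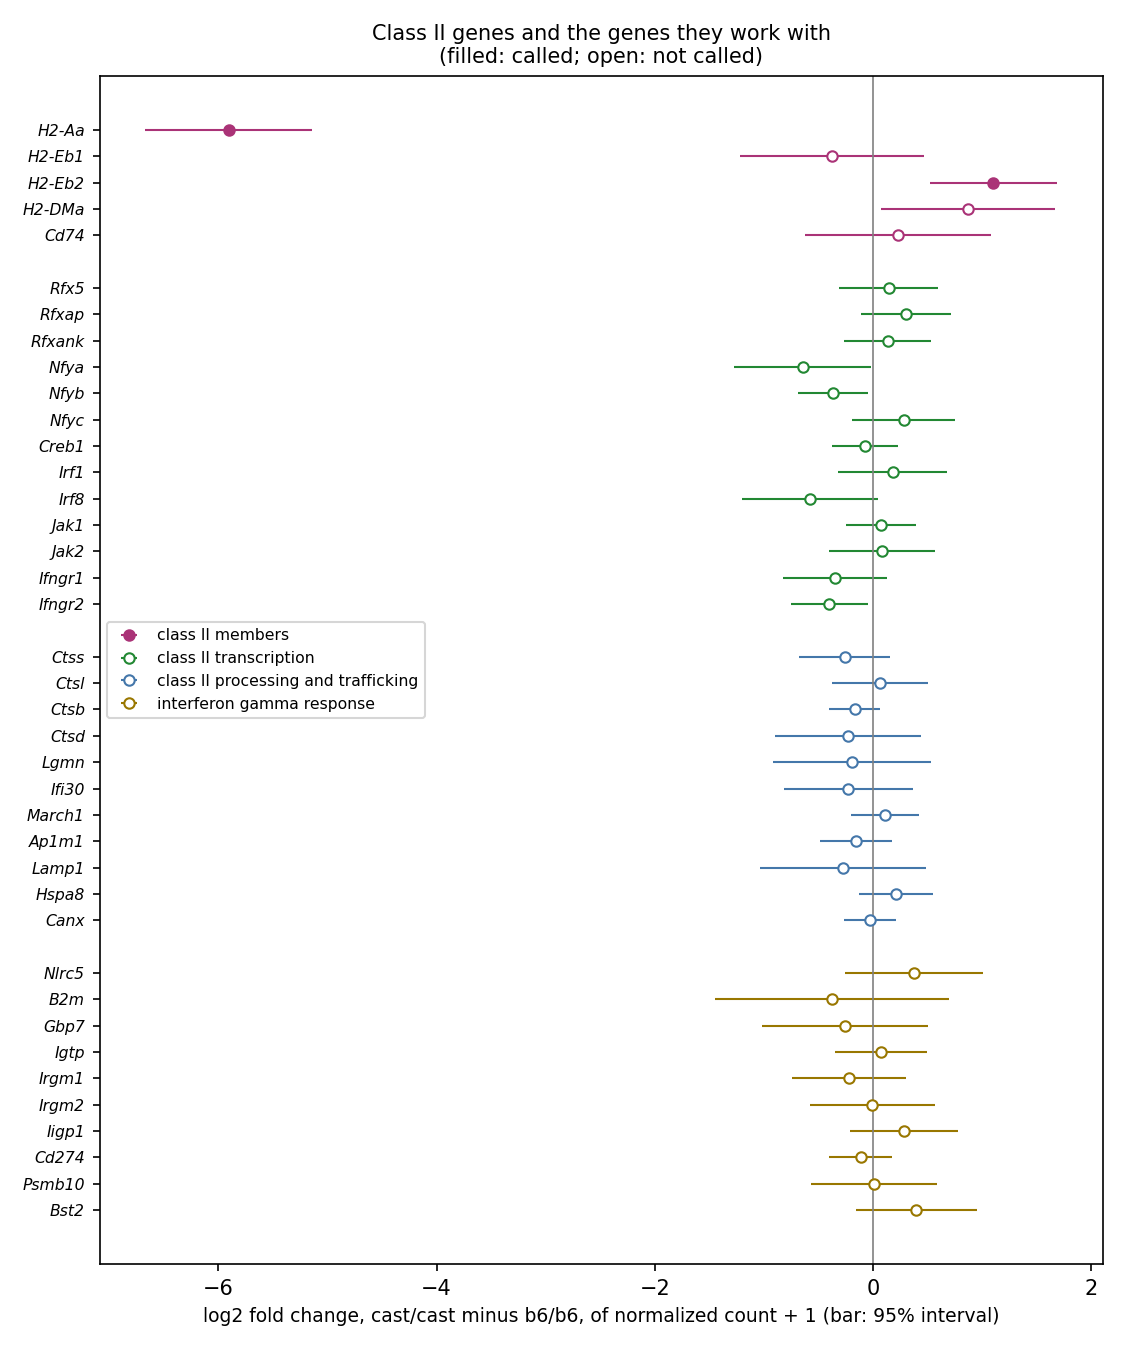
Log2 fold change (cast/cast minus b6/b6, of normalized count + 1) with 95% interval bars for the 5 class II genes and genes of 3 lists, where filled points were called. H2-Aa at -5.90 lies far below all others, and every open point of the 3 lists lies within 1 log2 unit of 0.

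Markers of microglia, border macrophages, dendritic cells, B cells and T cells were likewise not called in any list. Of 14 microglia genes 13 were measured, among them Cx3cr1 and Aif1, and their summed normalized count was 5413 to 8350 in b6/b6, against 4714 to 9110 in cast/cast. Aif1 lies in the CAST segment, so it does not mark microglia independently of genotype there, and it had a log2 fold change of 0.56 (P = 0.0411 by limma). Tmem119, named after its value was seen, had -0.78 (P = 0.0268). Of 8 perivascular and border macrophage genes 6 were measured, led by Cd163, Pf4 and Cbr2, and summed to 39.3 to 145 in b6/b6, against 34.3 to 166 in cast/cast. The ranges of both lists overlapped between the genotypes. Of the dendritic cell list 2 of 8 were measured (Zbtb46 and Flt3), of the B cell list 2 of 7 (Cd37 and Cd79a) and of the T cell list 1 of 7 (Lck). The markers that define these cells best, such as Itgax and Cd3e, were not analysed here. Dendritic cell sums were 80.2 to 152 in b6/b6, against 83.3 to 220 in cast/cast. In the same order, B cell sums were 75.0 to 260 against 104 to 620. Lck, the only T cell gene measured, ran from 97.9 to 459 against 92.6 to 501. The B cell sum of 620 was that of cast/cast mouse 6, and the next cast/cast mouse had 245. With the microglia list, Aif1 included, as a covariate, the log2 fold change of H2-Aa was -5.90, that of H2-Eb2 1.12 and that of H2-DMa 0.92. The choroid plexus list (5 of 8 measured, led by Kl, Clic6 and Kcnj13), 6 endothelial genes and 3 of 6 pituitary genes held no gene called by limma, edgeR or DESeq2. Among hypothalamic neuron genes DESeq2 called 1, Gad1.

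Genes next to the class II genes differed in both directions. H2-DMa, H2-Aa, H2-Eb1 and H2-Eb2 lie at 34122832-34139101, 34282751-34287771, 34305867-34316674 and 34325675-34341410 of chromosome 17 in GRCm38, as the deposited table gives them. Of 24 chosen neighbours 21 were measured, of which 2 rose, 6 fell and 13 were not called, in a segment where 24.5% of genes were called. Psmb8 and Psmb9, immunoproteasome subunits that interferon gamma raises together with class II genes, differed in opposite directions. Psmb8 fell from 66.4 ± 26.3 to 8.82 ± 4.10 (SD, n = 12 each, log2 fold change -2.83, adjusted P = 1.61e-08 by limma) and Psmb9 rose from 11.8 ± 9.01 to 29.0 ± 10.8 (log2 fold change 1.39, adjusted P = 0.0268). Tap1 and Tap2, the peptide transporter of the class I route, lie beside them and had log2 fold changes of -0.29 and -0.07 and were not called. The other chosen neighbours that fell were Rxrb, a nuclear receptor (-2.21), H2-K1 and H2-K2 (-1.26 and -3.90), Agpat1, an acyltransferase (-0.90), and Tnxb, a matrix protein (-1.95). H2-K1 and H2-K2 are class I genes of near-identical sequence whose tags could be shared. Ring1, a Polycomb protein, rose by 0.62. AA388235, which was not on the chosen list, lies in the same region. It fell from 54.9 to 0.157 (log2 fold change -5.62, adjusted P = 2.7e-16 by limma), and its genotypes did not overlap. Brd2, a bromodomain protein next to H2-DMa, had a log2 fold change of 0.03, and Notch4, an endothelial receptor, had 0.56, neither called.

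**Figure D4:**
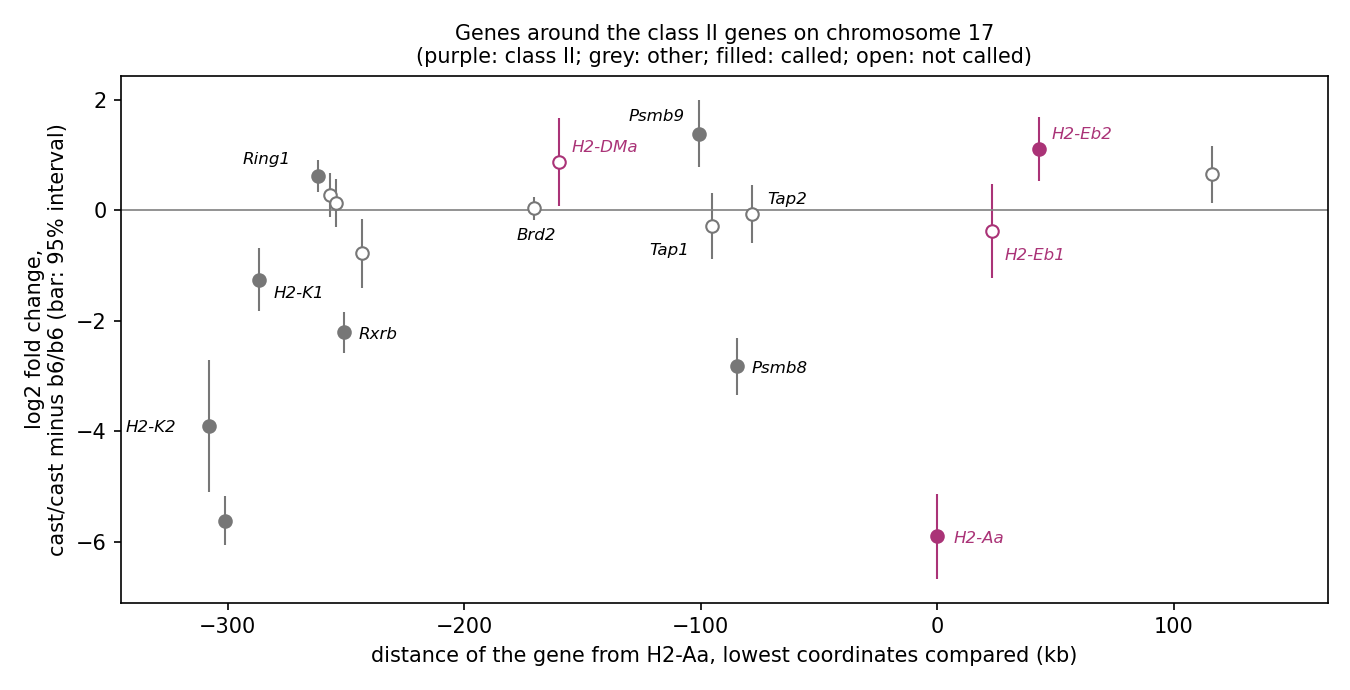
Log2 fold change (cast/cast minus b6/b6, with 95% interval bars) of the 18 measured genes around the class II genes against distance from H2-Aa in kb, where purple points are class II genes and filled points were called. Called genes that fell, such as H2-Aa and Psmb8, lie among genes that rose, such as Psmb9 and H2-Eb2, and among genes that were not called.

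The promoters of H2-Aa, H2-Eb1 and H2-Eb2 are shown because these 3 genes, with fold changes of unlike sign, share letters there. Class II promoters are known to carry X and Y boxes, bound by RFX and NF-Y. The stretches are from RefSeq promoters (GRCm38.p6), 5′ to 3′ on the strand of the gene. Capitals mark CTGATTGG, the letters of the Y box, and AGCAACTGATG, the longest run of letters that the H2-Eb1 and H2-Eb2 promoters share in the 45 bases before it.
H2-Aa: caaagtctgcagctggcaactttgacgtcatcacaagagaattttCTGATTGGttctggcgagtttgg
H2-Eb1: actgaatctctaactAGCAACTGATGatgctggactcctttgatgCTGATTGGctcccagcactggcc
H2-Eb2: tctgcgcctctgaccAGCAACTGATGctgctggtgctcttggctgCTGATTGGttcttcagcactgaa
They lie at chr17:34287852-34287919 on the minus strand (H2-Aa) and at chr17:34305760-34305827 and chr17:34325527-34325594 on the plus strand (H2-Eb1 and H2-Eb2). Whole promoter windows, longer than the stretches shown (34287774 to 34288073 for H2-Aa), were searched on both strands. Of 32851 windows, CTGATTGG occurred in 1346 (4.10%) and AGCAACTGATG in 8 (0.0244%), and the motifs do not overlap. The windows of H2-Eb1 and H2-Eb2 are among the 8 by construction, because AGCAACTGATG was taken from them. Neither of the 2 promoters listed for H2-DMa held CTGATTGG on either strand. Such matches are in the B6 reference, and the CAST/EiJ letters at these promoters were not examined here.

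In order of level, the b6/b6 medians ran from Cd74 (213.6) through H2-Aa (107.7), H2-DMa (44.0) and H2-Eb1 (13.9) to H2-Eb2 (8.93), and the ranges of neighbours in this order overlapped. In cast/cast the order was Cd74 (167.5), H2-DMa (139.5), H2-Eb2 (23.3), H2-Eb1 (8.80) and H2-Aa (0.427). H2-Aa thus stood second of 5 in b6/b6 and last in cast/cast. All of these are normalized counts per tag, and tags of different genes can be captured with unequal efficiency.

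The colony numbers allowed a comparison within neighbouring ranges, with 9 cast/cast and 3 b6/b6 mice and the range as a term. There H2-Aa had a log2 fold change of -7.22 (P = 1.01e-08 by limma), H2-Eb2 1.23 (P = 0.00885), H2-DMa 1.13 (P = 0.0532), H2-Eb1 -1.24 (P = 0.0277) and Cd74 -0.61 (P = 0.272). H2-Aa and H2-Eb2 were called there too. With the study number as a covariate the values were -5.96, 1.24, 0.74, -0.36 and 0.39, and the calls were those of H2-Aa and H2-Eb2.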

How the data were processed

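Per the labels and the study's methods, total RNA of the hypothalamus of each mouse was made into a SAGE library (SOLiD SAGE kit), and the tags were aligned to RefSeq mRNA and GRCm38/mm10. The deposited values are a signal, normalized counts: the authors scaled tag hits with a DESeq size factor per library. The table held 19529 rows for 13998 genes, with identical values in repeated rows, of which 1 was kept. No gene had a mean under the minimum of 5. In every library 100% of values were whole multiples of 1 tag (within 0.05 tags), which gave tag hits back for edgeR 4.0.16 and DESeq2 1.42.0. Among 276 pairs of libraries, chi-square per degree of freedom was at least 14.7, so no pair was alike within sampling noise.

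Groups came from the genotype in the labels, and mice were numbered within a genotype in accession order. The main test was limma 3.58.1 (R 4.3.3, lmFit and eBayes with trend) on log2(normalized count + 1) without covariates, all 24 mice, with Benjamini-Hochberg adjustment over all genes, so fold changes of low genes are understated. A call needed P ≤ 0.01 and means 1.5-fold apart. Intervals of fold changes are 95% normal intervals from the SE. On simulated data with 200 of 13998 genes changed, limma called 98% of 4-fold and 75% of 2-fold changes and 0.674% of unchanged genes. Relations among mice used 100000 permutations, two-sided, with the 2 mice farthest from the median of the x measure left out in turn (Python 3.11.15, scipy 1.17.1). Positions are those of the table. Tags were the last CATG plus the bases after it in the RefSeq-paired transcript of GENCODE M21, and CATG is taken from the kit's enzyme. Genes named are all members, every list gene called, up to 3 list genes at the highest mean and the 5 genes most like each member among those with a mean of at least 20, and a few genes under this rule are not reported here. Members and lists were chosen with earlier results of these data known. Alternatives were pseudocounts, filters, scalings, other tools and covariates, and, chosen after seeing the data, mice left out, principal components and the meningeal list. Columns of the authors' own comparison, with fold changes and P-values, were not used.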

Additional observations from a re-analysis of the deposited data

How the results depend on the processing

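H2-Aa stayed lower in cast/cast and called in all 20 settings, with a log2 fold change between -7.22 and -4.16, and H2-Eb2 stayed higher and called wherever it was tested at an unadjusted P, between 0.84 and 1.24. The number of members called, 2, was 1 with a minimum mean of 20, which leaves out H2-Eb1 and H2-Eb2, and 1 at an adjusted P of at most 0.01, and 3 under 7 settings that added H2-DMa (edgeR, DESeq2, Cd74 level as a covariate, 2 principal components as covariates, without cast/cast mouse 6, without cast/cast mice 4 and 6, and without these and b6/b6 mice 6 and 12). The log2 fold change of H2-DMa ran from 0.74 to 1.45. That of Cd74, 0.23 and not called in any setting, was -0.61 within neighbouring colony numbers, -0.0019 without b6/b6 mice 6 and 12, -0.027 without cast/cast mice 4 and 6, -0.26 without these 4 mice, -0.062 without cast/cast mouse 6 and -0.048 with 2 principal components, and the cause was not tested. Over all genes, 208 calls became 391 with edgeR, 395 with DESeq2, 105 within neighbouring colony numbers, 137 without b6/b6 mice 6 and 12, and 66 at an adjusted P of at most 0.01. No relation between members passed at an adjusted P of 0.05 under any of 4 alternatives, and the 1 relation with intake that passed by Pearson became 0 without the 2 mice farthest from the median, where H2-Aa with total intake in b6/b6 passed by Spearman (adjusted P = 0.0206). No paired analysis was possible because the labels give no replicate numbers. Depth limits H2-Eb1, H2-Eb2 and H2-Aa in cast/cast, which rest on few tags per mouse.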
